A study of Mus musculus with 10 samples.

Results

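The genes described here are 10 RNA-binding proteins that set splicing programmes of epithelial and mesenchymal cells: Esrp1, Esrp2, Rbm47, Rbfox2, Mbnl1, Mbnl2, Ptbp1, Ptbp2, Qk and Rbm4. They were chosen by gene symbol, were all found, and make up 10 of the 50600 genes listed in each library. The libraries came from mouse embryonic fibroblasts (MEFs) of CBA/CaJ X C57BL/6J embryos at E13.5, which carry an Oct4-GFP reporter. All cells received retroviruses for Oct4, Klf4 and Sox2 (OKS) and were grown in iCD1 medium, a medium in which these factors turn fibroblasts into induced pluripotent cells. The control arm also received DsRed (OKS+DR) and the other arm FoxO6, a forkhead transcription factor (OKS+FoxO6), and 1 library of each arm was made at days 0, 1, 3, 5 and 7. There were no replicate libraries, so a difference on a single day has no test.

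Fibroblasts that become pluripotent first pass through a mesenchymal to epithelial transition, in which alternative exons of adhesion and cytoskeletal genes are switched along with the genes themselves. Esrp1 and Esrp2 are the epithelial splicing regulatory proteins, found in epithelia and pluripotent cells and nearly absent from fibroblasts. Rbfox2, Qk and the muscleblind-like proteins Mbnl1 and Mbnl2 favour exons of mesenchymal and differentiated cells, and the polypyrimidine tract binding proteins Ptbp1 and Ptbp2 mostly repress exons.

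The libraries held between 1208379 and 2225750 reads, so genes of a few TPM rest on a handful of reads. Levels are given in TPM, the RSEM value corrected for transcript length and scaled to the same total in each library. Foxo6 was listed at 0.61 to 2.29 TPM in the 5 OKS+DR libraries and at 762 to 1356 TPM in the 5 OKS+FoxO6 libraries. It was at 1017 TPM already at day 0, so the day 0 cells of that arm carried the transgene. All 15 mesenchymal markers were detected in every library, and their summed level was 10747 and 10153 TPM at day 0 in OKS+DR and OKS+FoxO6, which goes with the labelled cell type. Of the markers of other cells that a MEF culture can hold, the macrophage genes Adgre1, Csf1r and Ptprc were at no more than 0.60 TPM and the endothelial genes Cdh5 and Emcn at no more than 1.24 TPM in any library. The summed levels of the whole lists of 10 genes were 17.2 to 94.2 TPM in OKS+DR and 29.8 to 55.1 TPM in OKS+FoxO6 for macrophages, and 67.0 to 88.8 and 73.5 to 155 TPM for endothelium. Other genes of these lists stood higher, with Laptm5 at up to 69.9 TPM, Cd68 at up to 52.6 TPM, Tek at up to 103.7 TPM and Kdr at up to 44.6 TPM. Over the 5 days Laptm5 was lower in OKS+FoxO6 at -1.10 in log2 (edgeR adjusted p = 0.0176), the 1 call of the 2 macrophage genes tested. Of the 4 endothelial genes tested, Tek and Kdr were higher by 0.96 and 2.195 (edgeR adjusted p = 0.0012 and 0.0301) and Eng, at up to 40.1 TPM, was lower at -0.81 (edgeR adjusted p = 0.0176). The part of such cells in the results of the 10 members was not tested.

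Esrp1 was first read at day 5 and had fewer reads in the OKS+FoxO6 arm. Esrp2 was the one member of the 8 tested whose arms differed by the test over the 5 days, where 13.5% of all genes were called. That call was lost with day 0, 1, 3 or 5 left out. Esrp2 also rose from day 0 to day 7. Mbnl1 and Mbnl2 fell over the same time, and Qk went apart in the arms at day 7. Ptbp1 and Rbfox2 passed none of the 3 tests.

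**Figure D1:**
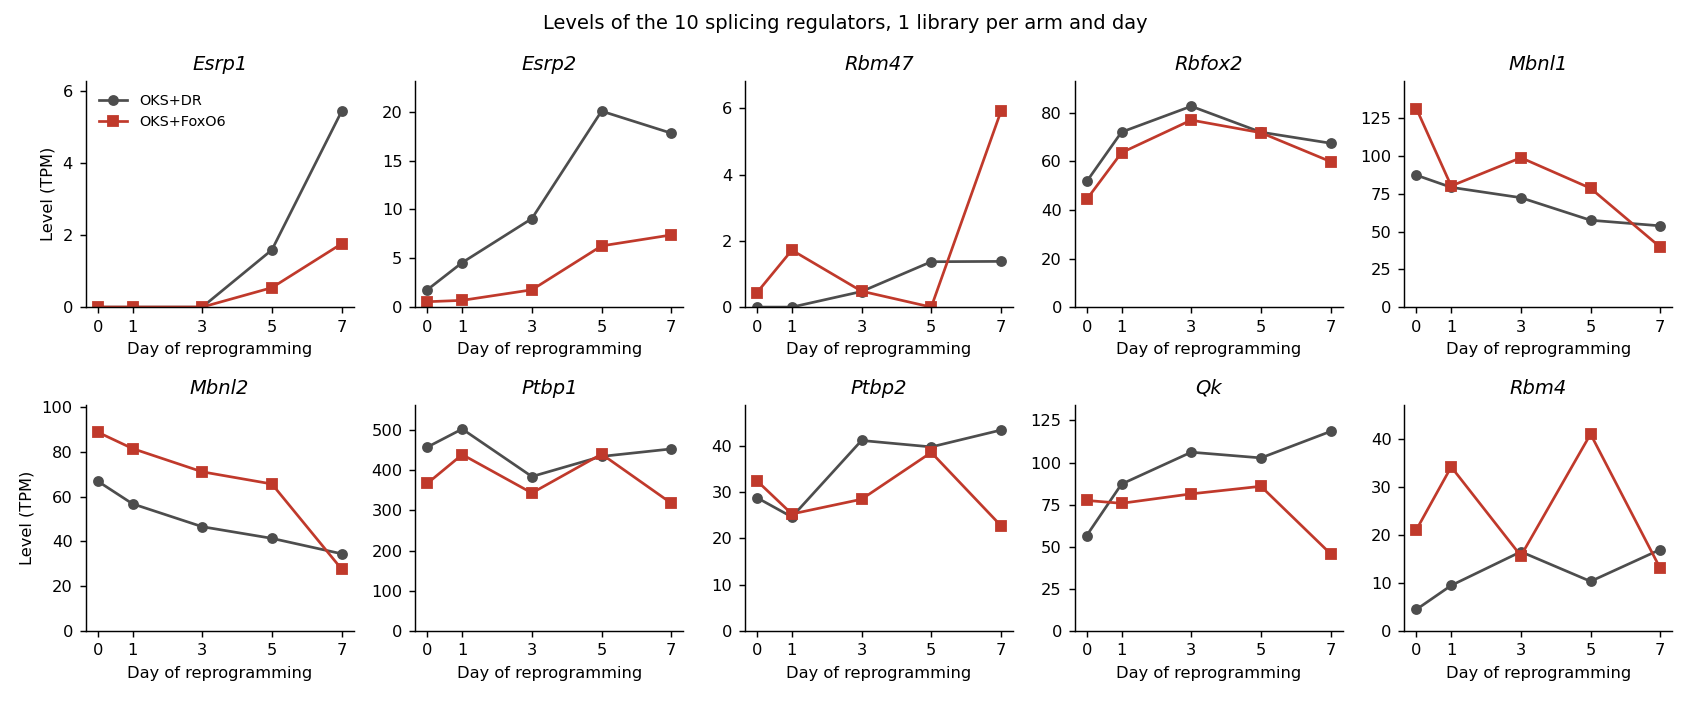
Levels of the 10 genes in TPM (vertical axes, from 0, a scale for each gene) by day of reprogramming (horizontal axes) in OKS+DR (grey circles) and OKS+FoxO6 (red squares). Each point is 1 library. Esrp2 lies lower in OKS+FoxO6 on all 5 days, ending at 7.39 against 17.8 TPM, where the share of reads differed less (0.765, interval 0.433 to 1.326), while Mbnl1 and Mbnl2 decline in both arms.

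Esrp1 (chr4:11331933-11386783, minus strand, GRCm38) had no read in any library up to day 3. In OKS+DR it had 2 reads at day 5 and 20 reads at day 7, which correspond to 1.59 and 5.44 TPM. In OKS+FoxO6 it had 1 read at day 5 and 4 reads at day 7, at 0.54 and 1.76 TPM. The gene was thus seen in both arms from day 5 on, with fewer reads in OKS+FoxO6 on both days. The exact 95% interval of its share at day 7 over that at day 0 began at 3.19 in OKS+DR, and at 0.941 in OKS+FoxO6, where it did not exclude an equal share. At day 7 the share in OKS+FoxO6 was 0.239 of that in OKS+DR, with an exact 95% interval of 0.06 to 0.715 that covers counting error only. A count of 0 before day 5 does not show absence, since 3 reads correspond to 1.35 to 2.48 CPM (reads scaled to the library total) in these libraries. Esrp1 had too few reads to pass the filter of the test over the 5 days. With no filter its shift between the arms was -1.64 (standard error 1.36, edgeR adjusted p = 0.747) and its change from day 0 to day 7 was 6.19 (edgeR adjusted p = 0.0505), and neither passed.

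Esrp2 (chr8:106130319-106136974, minus strand), the paralogue of Esrp1 with largely the same target exons, was the earlier and more abundant of the pair. In OKS+DR its level was 1.78, 4.56, 9.07, 20.1 and 17.8 TPM at days 0, 1, 3, 5 and 7, from 4, 11, 23, 35 and 36 reads. In OKS+FoxO6 it was 0.55, 0.69, 1.77, 6.27 and 7.39 TPM, from 2.09, 1, 6, 22 and 23 expected reads. The OKS+FoxO6 library was the lower on 5 of 5 days, although its highest value, at day 7, was above the values of OKS+DR at days 0 and 1. The share of reads in OKS+FoxO6 was 0.084 of that in OKS+DR at day 1 (95% interval 0.002 to 0.578), 0.193 at day 3 (0.064 to 0.486) and 0.414 at day 5 (0.232 to 0.726). At days 0 and 7 the intervals included 1, with ratios of 0.284 and 0.765. At day 7 the difference was smaller in reads than in TPM. The mean length of the Esrp2 transcripts to which RSEM assigned these reads was 2138 nucleotides in OKS+DR and 3536 nucleotides in OKS+FoxO6.

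The shift of Esrp2 between the arms over the 5 days was -1.47 on the log2 scale (standard error 0.40, edgeR adjusted p = 0.0358). It was the 1 call among the 8 members that could be tested, downwards, while 13.5% of all genes were called in this comparison. Since days stand in for replicates here, this p measures how evenly the arms differ from day to day. The call was lost with day 0, 1, 3 or 5 left out, at edgeR adjusted p = 0.0511, 0.073, 0.135 and 0.121 and shifts of -1.61 to -1.26, and with no term for day (edgeR adjusted p = 0.479). It held without day 7, at a shift of -1.94 and an adjusted p of 0.0161. From day 0 to day 7, with the arms as a block, Esrp2 rose by 3.12 (standard error 0.71, edgeR adjusted p = 0.0089). The slopes over the days did not differ by the test between the arms (difference 0.37 per day in log2, standard error 0.15, edgeR adjusted p = 0.212). The ratio of Esrp1 to Esrp2 in TPM was 0 up to day 3 and 0.305 in OKS+DR and 0.238 in OKS+FoxO6 at day 7. In TPM, Esrp2 therefore held 76.6% and 80.8% of the summed level of the pair at that day. In reads the arms lay further apart at day 7, with ratios of Esrp1 to Esrp2 of 0.556 in OKS+DR and 0.174 in OKS+FoxO6. The mean transcript lengths by which the reads were divided differed between the arms for both genes.

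Markers of epithelial and of pluripotent cells were compared beside the Esrp genes. The summed level of 17 epithelial markers ran from 123 to 1239 TPM in OKS+DR and from 59.0 to 390.2 TPM in OKS+FoxO6 between day 0 and day 7, and 6 of the 17 were at 0 in OKS+DR and 7 in OKS+FoxO6 at day 0. Of the 14 markers that could be tested, 12 rose from day 0 to day 7 and 6 were lower in OKS+FoxO6 over the 5 days, among them Cdh1, the cadherin of epithelial junctions, at -3.11 in log2, while 21.8% and 13.5% of all genes were called in these comparisons. The summed level of 12 pluripotency markers was 5.55 and 359 TPM at days 0 and 7 in OKS+DR and 1.1 and 99.3 TPM in OKS+FoxO6. At days 1 and 3 the sum was higher in OKS+FoxO6, at 5.59 and 33.0 TPM against 4.75 and 21.9 TPM in OKS+DR. All 5 of these that could be tested rose, and 1, Nanog, was lower in OKS+FoxO6 over the 5 days. The shifts of Zfp42 and Sall4 were -1.30 and -0.89 and those of Fbxo15 and Tfcp2l1 were 1.00 and 0.34, and none of these passed. The part of either cell type in the Esrp values was not tested, and in bulk RNA fewer cells of a type and less RNA per cell cannot be told apart.

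Rbm47 (chr5:66016549-66173118, minus strand), an RNA-binding protein of epithelia that opposes the mesenchymal state, was close to the limit of detection. It had 0, 0, 1, 2 and 4 reads in OKS+DR and 2, 3, 1, 0 and 3 reads in OKS+FoxO6 at days 0, 1, 3, 5 and 7. The arms could not be ordered from these counts, and all intervals of their ratio included 1. The 5.91 TPM of OKS+FoxO6 at day 7 came from 3 reads assigned to transcripts with a mean length of 628 nucleotides, whereas OKS+DR had 1.38 TPM from 4 reads. Rbm47 did not pass the filter of the tests over the days. With no filter its shift between the arms was 0.27, its change from day 0 to day 7 was 1.77 and its difference in slope was -0.57 (edgeR adjusted p = 0.968, 0.849 and 0.924).

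Mbnl1 (chr3:60472830-60629750, plus strand) and Mbnl2 (chr14:120275669-120431697, plus strand) are zinc-finger proteins that favour the exon choices of differentiated cells over those of pluripotent cells. Mbnl1 was at 87.3, 79.2, 72.4, 57.5 and 53.8 TPM in OKS+DR and at 131.4, 80.1, 98.8, 78.6 and 39.7 TPM in OKS+FoxO6 over the days. Mbnl2 was at 67.0, 56.8, 46.6, 41.4 and 34.5 TPM in OKS+DR and at 88.9, 81.5, 71.1, 65.7 and 27.6 TPM in OKS+FoxO6. The level of both genes was higher in OKS+FoxO6 at days 0 to 5 and lower at day 7, and the ranges of the arms overlapped.

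Both genes fell from day 0 to day 7. The change was -1.15 for Mbnl1 (standard error 0.21, edgeR adjusted p = 0.00228) and -1.27 for Mbnl2 (standard error 0.23, edgeR adjusted p = 0.00217) on the log2 scale. Together with Esrp2, which rose, 3 of the 8 members tested were called between day 0 and day 7, against 21.8% of all genes. Within the arms, the share of reads of Mbnl2 at day 7 was 0.505 of that at day 0 in OKS+DR (95% interval 0.405 to 0.629) and 0.36 in OKS+FoxO6 (0.289 to 0.444). For Mbnl1 these shares were 0.579 (0.475 to 0.705) and 0.385 (0.32 to 0.46).

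Between the arms, no shift of these genes passed the test with all 5 days. The share of Mbnl2 reads in OKS+FoxO6 was 1.23 to 1.55 of that in OKS+DR at days 0 to 5, with 95% intervals above 1 on each of those 4 days, and 0.878 at day 7 (0.68 to 1.13). Over the 5 days the shift of Mbnl2 was 0.37 (standard error 0.14, edgeR adjusted p = 0.112), and the library pair of day 7 decided this: without it the shift was 0.49 with an adjusted p of 0.0188. The shift of Mbnl1 was 0.26 (standard error 0.13, edgeR adjusted p = 0.228), and its share of reads had intervals above 1 at days 0, 3 and 5. The TPM of OKS+FoxO6 at day 7 lay lower for most genes, with a median difference of -0.139 in log2(TPM + 1) over 15011 genes against -0.015 in CPM. For Mbnl1 the difference at day 7 was -0.43 in log2(TPM + 1) and -0.10 (log2) in TMM-scaled CPM, and the mean transcript length by which its reads were divided was 3828 nucleotides in OKS+DR and 4398 in OKS+FoxO6.

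**Figure D2:**
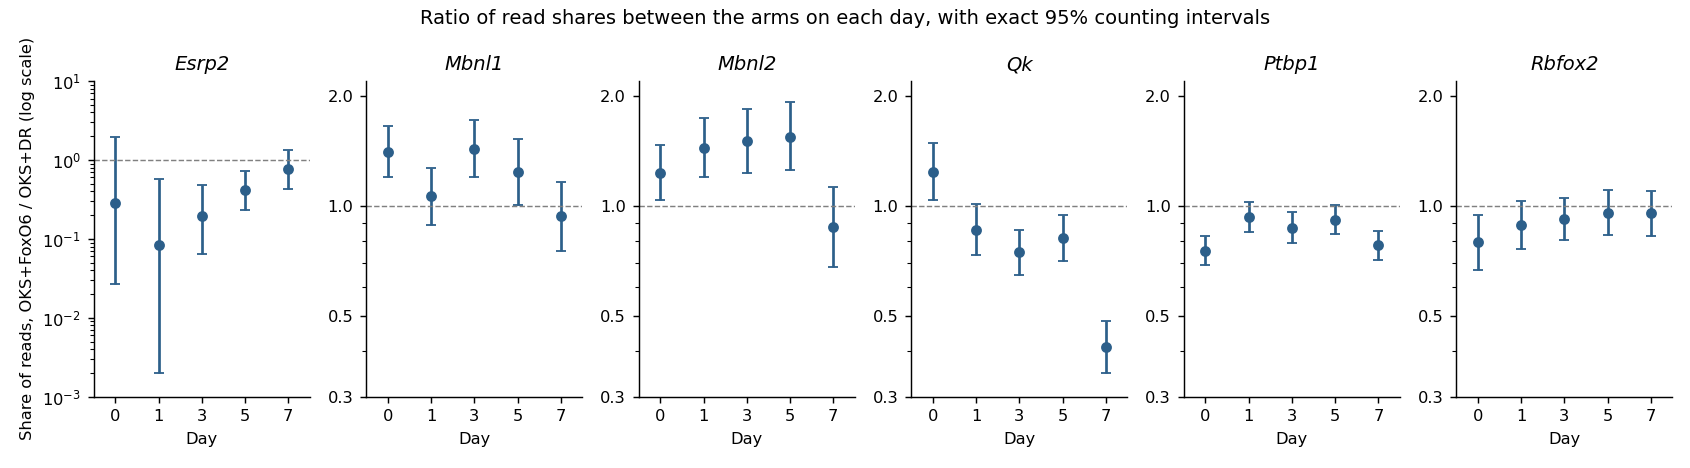
Ratio of the share of reads in OKS+FoxO6 to that in OKS+DR (log scale, Esrp2 on a wider axis) on each day for 6 members. Points are ratios of 1 library to 1 library, bars are exact 95% intervals for counting error, and the dashed line marks a ratio of 1. Mbnl2 lies above 1 at days 0 to 5, and Qk reaches 0.412 at day 7.

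The third gene of the family, Mbnl3, is not among the 10 but went the other way. Its level was 2.83 TPM at day 0 and 31.2 to 35.7 TPM from day 1 on in OKS+DR, and 2.77, 14.8, 32.5, 32.8 and 30.9 TPM over the days in OKS+FoxO6. It rose from day 0 to day 7 by 2.47 on the log2 scale (standard error 0.40, edgeR adjusted p = 0.00117). The summed level of the family in OKS+DR was 157 TPM at day 0 and 119 TPM at day 7, of which Mbnl3 made up 1.8% and 26.1%. In OKS+FoxO6 the sum was 223 TPM at day 0 and 98.2 TPM at day 7, and the part of Mbnl3 was 1.2% and 31.5%. At day 1 that part was 20.8% in OKS+DR and 8.4% in OKS+FoxO6.

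**Figure D3:**
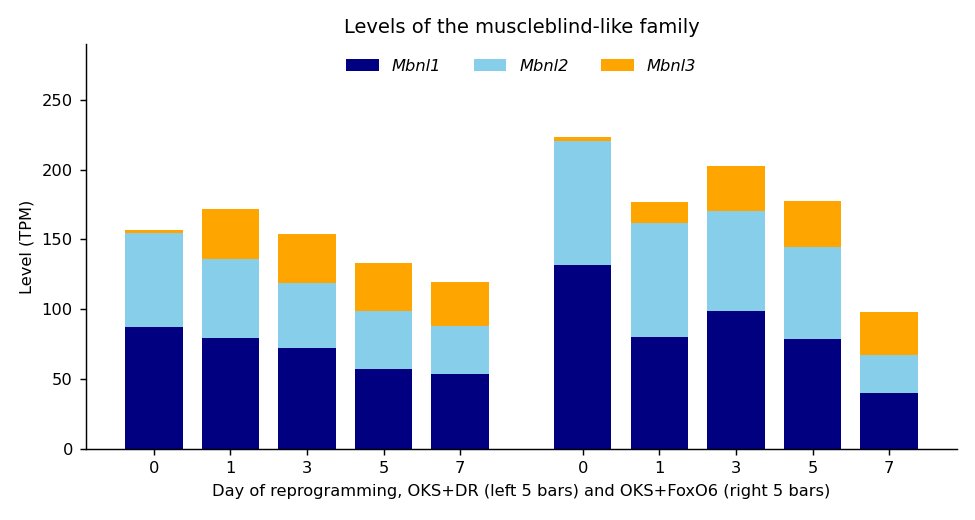
Levels of Mbnl1, Mbnl2 and Mbnl3 in TPM, stacked, in each of the 10 libraries (5 bars of OKS+DR on the left, 5 of OKS+FoxO6 on the right, days 0 to 7). The sum is 157 TPM at day 0 and 119 TPM at day 7 in OKS+DR, and 223 and 98.2 TPM in OKS+FoxO6. Mbnl3 makes up 1.8% and 1.2% of it at day 0 and 26.1% and 31.5% at day 7.

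Qk (chr17:10202601-10319854, minus strand) encodes quaking, a STAR-domain protein that favours mesenchymal exons and circular RNAs. Its level in OKS+DR was 56.6, 87.2, 106, 103 and 118 TPM at days 0, 1, 3, 5 and 7. In OKS+FoxO6 it was 77.5, 75.8, 81.4, 85.9 and 45.8 TPM. The OKS+FoxO6 library was thus the higher at day 0 and the lower on the other 4 days, and its value at day 7 lay below all others. Qk, Esrp1 and Esrp2 were the 3 of the 10 members that lay more than 2-fold lower in OKS+FoxO6 at day 7, with differences of -1.35, -1.22 and -1.17 in log2(TPM + 1). Rbm47 lay more than 2-fold higher, at 1.54 from 3 reads. Of the 9 members with a mean of at least 1 TPM, which leave out Esrp1, 2 were lower and 1 higher. Of all genes at that level, 24.8% were past 2-fold in either direction. In TMM-scaled CPM the difference of Esrp2 was -0.37 (log2), and those of Qk and Esrp1 were -1.27 and -1.72. The share of reads in OKS+FoxO6 was 1.24 of that in OKS+DR at day 0 (95% interval 1.04 to 1.49), 0.746 at day 3 (0.645 to 0.862), 0.816 at day 5 (0.706 to 0.944) and 0.412 at day 7 (0.349 to 0.485). Within OKS+DR the share at day 7 was 2.05 of that at day 0 (1.74 to 2.44), and within OKS+FoxO6 it was 0.682 (0.573 to 0.81).

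The difference in slope between the arms was -0.17 per day in log2 for Qk (standard error 0.05, edgeR adjusted p = 0.0835), the lowest adjusted p of the 8 members. None of the 8 passed this test, in which 1.60% of all genes were called at an adjusted p under 0.05. Qk and Esrp2 had an unadjusted p under 0.05, a threshold at which the share of all genes was not counted. With no filter on low counts the slope of Qk passed, at -0.18 and an adjusted p of 0.00734, and with DESeq2 it did not (adjusted p = 0.0987). The shift of Qk over the 5 days was -0.39 (standard error 0.19, edgeR adjusted p = 0.201). It was -0.18 without day 7 and -0.55 without day 0 (edgeR adjusted p = 0.419 and 0.0721). From day 0 to day 7 it was 0.21 (standard error 0.29, edgeR adjusted p = 0.676).

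Rbfox2 (chr15:77078990-77307004, minus strand) binds a short RNA motif next to exons that mesenchymal cells include. It was at 51.7, 72.1, 82.7, 72.0 and 67.5 TPM in OKS+DR and at 44.4, 63.6, 77.0, 71.8 and 59.9 TPM in OKS+FoxO6. Both arms were lowest at day 0 and highest at day 3. The OKS+FoxO6 value was the lower on 5 of 5 days, but the 95% interval of the share of reads excluded 1 only at day 0 (0.795, 0.668 to 0.947). Within the arms, the share at day 7 was 1.29 of that at day 0 in OKS+DR (1.09 to 1.52) and 1.55 in OKS+FoxO6 (1.33 to 1.81), and at day 3 it was 1.49 (1.26 to 1.76) and 1.72 (1.49 to 1.99). The shift over the 5 days was -0.16 (standard error 0.11, edgeR adjusted p = 0.395) and the change from day 0 to day 7 was 0.43 (standard error 0.18, edgeR adjusted p = 0.104). Esrp2 and Rbfox2 were the 2 of the 9 members with a mean of at least 1 TPM that differed in the same direction on all 5 days, against 18.3% of all genes at that level.

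Ptbp1 (chr10:79854427-79864771, plus strand), a general repressor of exons that is high in cycling cells, had the highest level of the 10 in every library. It was at 458, 503, 384, 434.5 and 453 TPM in OKS+DR and at 367, 439, 343, 440.3 and 318 TPM in OKS+FoxO6. The level was lower in OKS+FoxO6 on 4 of 5 days, and the 95% intervals of the share of reads lay below 1 at days 0, 3 and 7, where the ratios were 0.755, 0.873 and 0.78. Over the 5 days the shift was -0.25 (standard error 0.11, edgeR adjusted p = 0.15), and from day 0 to day 7 it was -0.04 (standard error 0.17, edgeR adjusted p = 0.912).

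Ptbp2 (chr3:119718742-119784466, minus strand), the paralogue that neurons use in place of Ptbp1, stood far lower. It was at 28.8, 24.6, 41.1, 39.7 and 43.4 TPM in OKS+DR and at 32.4, 25.2, 28.4, 38.5 and 22.7 TPM in OKS+FoxO6. All intervals of the ratio between the arms included 1, and it passed none of the 3 tests. The ratio of Ptbp2 to Ptbp1 lay between 0.0489 and 0.107 in the 10 libraries, with no arm apart from the other. Of 10 neural markers the summed level lay between 262 and 649 TPM in OKS+DR and between 136 and 349 TPM in OKS+FoxO6, and of the 5 tested Tubb3, Nes and Stmn2 were lower in OKS+FoxO6 over the 5 days, at -2.58, -1.52 and -1.14 in log2 (edgeR adjusted p = 0.000233, 0.000266 and 0.0196). The part of these cells in Ptbp2 was not tested.

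**Figure D4:**
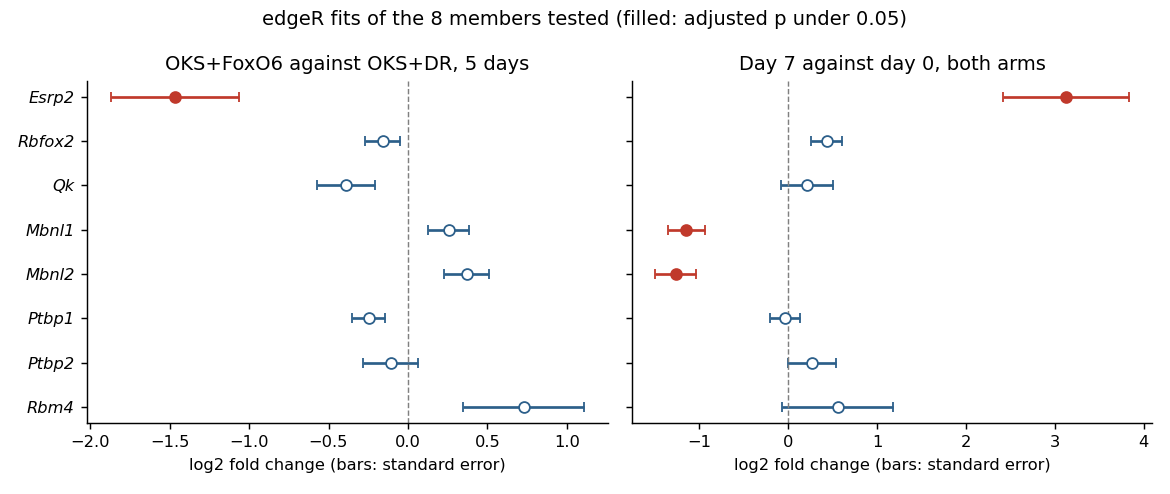
Log2 fold changes (horizontal axes) with standard errors (bars) of the 8 members tested by edgeR, on the left for OKS+FoxO6 against OKS+DR over the 5 days and on the right for day 7 against day 0 in both arms. Filled red points have an adjusted p under 0.05. These are Esrp2 on the left, at -1.47, and Esrp2, Mbnl1 and Mbnl2 on the right, at 3.12, -1.15 and -1.27.

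Rbm4 (chr19:4784293-4793901, minus strand), an RNA-binding protein that opposes Ptbp1 at many exons, cannot be read on its own in these libraries. Of the 75-base windows in its annotated transcripts, 57.7% also occur in Gm21992 (chr19:4742913-4811612, minus strand), a read-through gene that joins the neighbouring Rbm14 to the Rbm4 exons, and 7.04% occur in the neighbouring paralogue Rbm4b (chr19:4756497-4767065, plus strand). The coding sequences of Rbm4 and Rbm4b are the same over the first 425 bases from the start codon. For 8 of the other 9 members no window occurs in another gene, and for Rbm47 1.21% do. The stretches below, from the GENCODE M21 transcripts, are shown because they decide which reads can be assigned. The first is coding positions 1 to 150, counted from the start codon, with no difference between the paralogues and present in 3 transcripts of Gm21992:
Rbm4: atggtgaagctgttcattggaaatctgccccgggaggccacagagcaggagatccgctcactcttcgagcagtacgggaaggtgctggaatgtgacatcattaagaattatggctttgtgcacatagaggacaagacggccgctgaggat
Rbm4b: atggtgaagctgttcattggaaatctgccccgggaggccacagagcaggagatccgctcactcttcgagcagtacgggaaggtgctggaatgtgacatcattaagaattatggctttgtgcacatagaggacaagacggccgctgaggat
The second is coding positions 394 to 543, where capitals mark the 21 bases that differ between Rbm4 and Rbm4b. The Rbm4 stretch also occurs unchanged in 1 transcript of Gm21992:
Rbm4: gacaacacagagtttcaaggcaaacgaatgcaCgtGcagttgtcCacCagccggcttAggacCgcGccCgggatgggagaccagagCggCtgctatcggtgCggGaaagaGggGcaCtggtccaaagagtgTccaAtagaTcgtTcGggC
Rbm4b: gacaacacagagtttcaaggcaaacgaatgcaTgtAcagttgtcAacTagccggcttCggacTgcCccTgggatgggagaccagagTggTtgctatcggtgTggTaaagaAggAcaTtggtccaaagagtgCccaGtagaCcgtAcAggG

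The reads of Rbm4 are therefore estimates that RSEM divided among 3 genes. In OKS+DR the gene was assigned 1.95, 18.7, 27.1, 18.2 and 31.2 expected reads at days 0, 1, 3, 5 and 7, and Gm21992 21.2, 30.4, 30.8, 38.0 and 33.9. In OKS+FoxO6 the values were 39.2, 43.4, 33.4, 67.3 and 18.2 for Rbm4 and 18.5, 27.1, 34.9, 23.7 and 46.1 for Gm21992. In TPM, the difference between the arms had opposite signs in Rbm4 and Gm21992 on all 5 days. At day 0 the share of reads in OKS+FoxO6 was 10.9 of that in OKS+DR for Rbm4 (95% interval 2.79 to 97.1) and 0.473 for Gm21992 (0.239 to 0.928). The sum of the genes gave ratios of 0.87 to 1.35, with intervals that included 1 on all 5 days. With Rbm4b added, the ratios were 0.866 to 1.17, again with 1 in every interval.

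By itself Rbm4 had a shift of 0.73 between the arms (standard error 0.38, edgeR adjusted p = 0.249), which passed with no filter on low counts at an adjusted p of 0.0428. Summed with Gm21992 the shift was 0.18 (edgeR adjusted p = 0.54), and with Rbm4b added as well it was -0.09 (edgeR adjusted p = 0.7). From day 0 to day 7, Rbm4 alone gave 0.56 (standard error 0.63, edgeR adjusted p = 0.589), whereas the sum of all 3 genes rose by 1.02 (standard error 0.20, edgeR adjusted p = 0.00391). Rbm4b, the paralogue with the most reads, rose by 1.25 by itself (edgeR adjusted p = 0.00269). These sums were formed after the values had been seen.

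**Figure D5:**
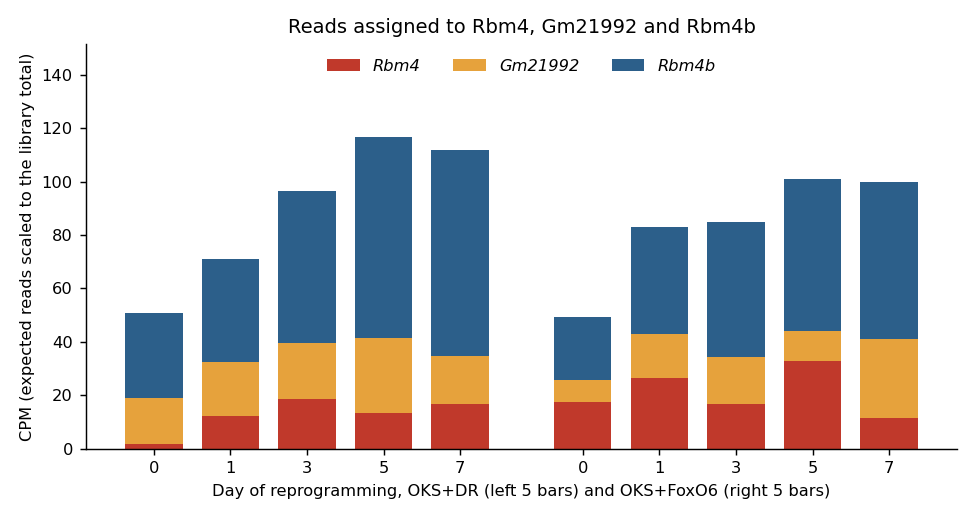
Expected reads, in CPM, assigned to Rbm4 (red), Gm21992 (orange) and Rbm4b (blue), stacked, in each library (5 bars of OKS+DR on the left, 5 of OKS+FoxO6 on the right, days 0 to 7). The division between Rbm4 and Gm21992 changes from library to library, while the height of the sum differs between the arms by ratios of 0.866 to 1.17.

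On single days, 1 to 3 of the 9 members with a mean of at least 1 TPM were past 2-fold between the arms in log2(TPM + 1). At day 0 only Rbm4 was past 2-fold, higher in OKS+FoxO6, against 17.0% of all genes at that level in either direction. At day 1 Rbm4 and Rbm47 were higher and Esrp2 lower (17.5% of all genes), and at day 3 Esrp2 alone was lower (20.0%). At day 5 Rbm4 was higher and Esrp2 and Rbm47 lower (21.7%), and at day 7 Rbm47 was higher and Esrp2 and Qk lower (24.8%). In TMM-scaled CPM, Esrp2 was past 2-fold at day 0 too (-1.19 in log2), while Esrp2 and Rbm47 were within it at day 7 (-0.37 and -0.10). Within OKS+DR, from day 0 to day 7, 4 of the 9 were more than 2-fold higher (Esrp2, Rbm47, Qk and Rbm4) and 0 lower, where 32.5% of all genes moved by that much. In OKS+FoxO6, Esrp2 and Rbm47 were higher and Mbnl1 and Mbnl2 lower, where 31.4% did. In TMM-scaled CPM, Qk in OKS+DR (0.95 in log2) and Rbm47 in OKS+FoxO6 (0.60) were within 2-fold, and Mbnl2 in OKS+DR was past it (-1.06). The entries of Rbm47 and Rbm4 rest on the few or divided reads described above.

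Transcription factors that set the Esrp genes and the mesenchymal state were compared as a list of 14, of which 11 could be tested. Zeb1, a repressor of epithelial genes that binds at Esrp1, was higher in OKS+FoxO6 by 0.67 in log2 (standard error 0.14, edgeR adjusted p = 0.011). Its level was 20.1, 25.5, 18.9, 21.5 and 12.4 TPM in OKS+DR and 30.1, 37.1, 42.1, 37.9 and 12.5 TPM in OKS+FoxO6, so that the arms met at day 7. Twist1, a driver of mesenchymal fate, was higher by 1.00 (edgeR adjusted p = 0.00237) and Klf5 by 0.99 (edgeR adjusted p = 0.0404). Elf3, an epithelial factor of the ETS family, was lower, with a shift of -2.07 (edgeR adjusted p = 0.0183). At day 7 Elf3 was at 56.9 TPM in OKS+DR and 17.5 TPM in OKS+FoxO6. The list thus had 3 higher and 1 lower of 11 over the 5 days, with a median shift of 0.02, against -0.02 over all genes, of which 13.5% were called.

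Of these 11 factors, 3 rose and 6 fell between day 0 and day 7. The risers were Elf3, Ehf and the grainyhead gene Grhl3, by 8.80, 5.32 and 5.19 in log2. The sizes of these rises are uncertain, since the genes were at or near 0 at day 0. In OKS+DR and OKS+FoxO6, Elf3 was then at 0 and 0 TPM, Ehf at 0 and 4.18 TPM and Grhl3 at 0.57 and 0 TPM. Zeb1, Zeb2, Snai1, Snai2, Twist1 and Twist2, all of them repressors of the epithelial programme, fell by 1.07, 1.24, 2.28, 2.93, 1.79 and 3.87. Grhl1 had a change of 2.78 that did not pass (edgeR adjusted p = 0.0541), and Klf5 had -1.11 (edgeR adjusted p = 0.0922). Grhl2, which acts at epithelial promoters, had too few reads for the test and was at 8.21 TPM in OKS+DR and 0.63 TPM in OKS+FoxO6 at day 7. The median change of the list was -1.11, against 0.03 over all genes, of which 21.8% were called.

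Genes whose exons are known to switch with the Esrp proteins were compared as a list of 15, and all 15 could be tested for their level. In OKS+FoxO6, Fgfr2 was higher by 0.55 in log2 (edgeR adjusted p = 0.037), and Itga6 and Cd44 were lower at -1.11 and -0.53 (edgeR adjusted p = 0.0121 and 0.0127), 3 of 15 where 13.5% of all genes were called. The median shift was 0.02. The remaining 12, Ctnnd1, Enah, Scrib, Nf2, Arhgef11, Slk, Exoc7, Numb, Map3k7, Magi1, Fn1 and Tcf7l2, did not pass, with values from -0.46 to 0.31. Itga6, an integrin of epithelial attachment, also had a difference in slope of -0.25 per day (edgeR adjusted p = 0.0351), from 187 to 39.7 TPM in OKS+FoxO6 and from 212 to 160.3 TPM in OKS+DR between day 0 and day 7.

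Between day 0 and day 7, 3 of the 15 targets rose, Magi1 by 1.78, Nf2 by 1.05 and Tcf7l2 by 0.88 in log2, and 4 fell, Fn1, Itga6, Cd44 and Fgfr2, at -1.61, -1.54, -1.21 and -0.94, where 21.8% of all genes were called. Fibroblasts make mesenchymal isoforms of Fgfr2, a growth factor receptor, and of the matrix protein Fn1, which is also on the list of 15 mesenchymal markers, of which 12 fell.

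The values per gene hold one trace of isoform use, the mean transcript length, in which RSEM weights the isoforms of a gene by abundance. All 15 targets had at least 20 reads in every library, and the arms did not overlap in 1, Exoc7, a subunit of the exocyst. Its mean length was 2273 to 2618 nucleotides in OKS+DR and 3008 to 3214 nucleotides in OKS+FoxO6, at a level that did not differ by the test (0.03, edgeR adjusted p = 0.915). Of all genes with that many reads and a mean length that varied between the libraries, 0.751% did not overlap. No member did, of the 6 with enough reads, and the length does not tell which exon differs.

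A wider list of 72 other splicing regulators, of which 66 were tested, served as a setting for the 10. Over the 5 days 1 was higher in OKS+FoxO6, Cpeb2 by 1.29 in log2, and 3 were lower, Celf4, Hnrnpa1 and Hnrnpd, at -1.36, -0.51 and -0.50. The median shift was -0.12, against -0.02 over all genes, of which 13.5% were called. Between day 0 and day 7, 11 rose and 2 fell, with a median of 0.30, against 0.03 over all genes, of which 21.8% were called. The largest rises were in Nova2 (2.83), Mbnl3 (2.47), Rbm4b (1.25) and Rbm14 (0.94), and the falls were in Celf2 (-2.12) and Cpeb2 (-1.19). Celf2 and Celf4 belong to the CELF family, which acts against muscleblind-like proteins at shared exons. Celf2 was at 38.4 TPM at day 0 and 11.8 TPM at day 7 in OKS+DR, and at 41.9 and 5.69 TPM in OKS+FoxO6.

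Across the 10 libraries, which share arms and days, the pattern of log2(TPM + 1) of Mbnl1 was close to that of Mbnl2 (Pearson r = 0.934). Esrp1 and Esrp2 had r = 0.75, Esrp2 and Mbnl2 r = -0.832, and Ptbp2 and Qk r = 0.776. Of 11491 other genes with a mean of at least 5 TPM, those most like Esrp1 were Nanog, Lama5, Nr5a2, Cyp2b23 and Bhmt, with r from 0.964 to 0.982. Nanog, a core pluripotency factor, was at 58.4 TPM in OKS+DR and 8.31 TPM in OKS+FoxO6 at day 7 and, like Esrp1, at no more than 0.71 TPM up to day 3. Those most like Mbnl1 were Rnf111, Map4k5, Strn, Rhbdd1 and Nek7, with r from 0.951 to 0.972.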

How the data were processed

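RNA-seq libraries of OKS+DR and OKS+FoxO6 cells, 1 per arm and day, were grouped by their labels. The authors used Bowtie2 within RSEM for alignment and counting on GENCODE M13 (mm10 in the submitters' processing notes). The labels and the methods name different library kits. The deposited expected counts are RSEM estimates without normalization, and the deposited TPM values are theirs as well. The deposited lengths are RSEM means weighted over isoforms. Coordinates and transcripts are those of GENCODE M21.

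Differences on single days used log2(TPM + 1). Shares of reads were compared by exact 95% conditional binomial intervals on expected counts without rounding, which cover counting error only. For counts of 0, a floor of 3 reads per library was used. R 4.3.3 with edgeR 4.0.16 fitted rounded expected counts (quasi-likelihood, TMM, filterByExpr, 12212 genes, Benjamini-Hochberg over all of them, threshold 0.05) with day and arm, and added arm by day for slopes, leaving 4 and 3 residual degrees of freedom. Days and arms stand in for replicates, so p-values measure the spread between these libraries. On simulated data with 200 genes changed 4-fold, the fits recovered 192 (arm, 11831 genes), 174 (day 7, 11827 genes) and 189 (slope, 11849 genes), with 8, 8 and 9 false calls. DESeq2 1.42.0, Python 3.11.15, numpy 2.4.6, pandas 2.3.3, scipy 1.17.1 and matplotlib 3.10.9 were also used.

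The members and lists were chosen with earlier results of these data known. Named were all members, all transcription factors and splicing targets with a mean of at least 1 TPM, of the other regulators the 4 largest called changes in each direction, and the 5 genes most like Esrp1 and Mbnl1. Mbnl3 and Rbm4b are described further than this rule asks. A result of the splicing target list is not reported here.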

Additional observations from a re-analysis of the deposited data

How the results depend on the processing

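The calls of Esrp2, Mbnl1 and Mbnl2 between day 0 and day 7 held under every alternative run (other size factors, no filter, DESeq2, a length trend, a middle day left out). The Esrp2 shift between the arms held with other size factors, no filter, DESeq2, the length trend and without day 7, but not without another day or without a day term. The number of genes called for the shift between the arms, 1651, was 162 with no day term and 705 to 1640 with a day left out. The 196 slope calls became 648 with no filter. With a mean of at least 5 TPM required, 1387, 1362, 1613, 1780 and 2220 genes were past 2-fold at days 0, 1, 3, 5 and 7. Without division by length, the median ratio of Ptbp2 to Ptbp1 was 0.0597 and that of Mbnl2 to Mbnl1 0.8347. Of the 5 genes most like Esrp1, 3 remained by Spearman rho and 2 by CPM, and of those most like Mbnl1, 2 and 1. The sign turned for Rbm4 over the 5 days summed with Gm21992 and Rbm4b (-0.091), and in TMM-scaled CPM for differences with no test: between the arms for Rbm47 at day 7 (1.538 to -0.104) and day 3 (0.010 to -0.160) and for Ptbp1 at day 5 (0.019 to -0.132), and from day 0 within OKS+FoxO6 for Ptbp1 (-0.208 to 0.004) and Ptbp2 (-0.494 to 0.039). The causes were not tested beyond what each alternative changes. The labels carry no replicate numbers, so the arms were paired by day, and the fit with no day term is the unpaired one. Depth limits Esrp1 and Rbm47, with 27 and 16 reads in all libraries together.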
